A study of Mus musculus with 214 samples.

Results

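The genes described are 8 annexins, Anxa1, Anxa2, Anxa3, Anxa4, Anxa5, Anxa6, Anxa7 and Anxa11, and 2 S100 proteins that bind annexins, S100a10 and S100a11, out of 19900 genes measured in mouse liver in either genotype. They were picked by symbol with the response of these livers to N-nitrosodimethylamine (NDMA) already known. NDMA against saline is therefore the contrast they were selected on. Its values are given as a description with no p, and where members are said to be called in it, the word only sorts them by the limits used for all genes and supports nothing. Tests of the members are given only for age, sex and genotype in saline livers and for how partners varied together among mice of 1 group. Of the 10 genes, 9 passed the filter on low values (a mean of at least 5 normalised counts) in every comparison. Anxa11 passed in none, with 9 reads over 114 WT libraries and 20 reads over 95 Mgmt-/- libraries.

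Annexins are proteins that bind acidic phospholipids of membranes when calcium rises, and they take part in membrane repair, vesicle traffic and the uptake of dying cells. S100a10 and S100a11 are small proteins of the S100 family that dimerise. An S100a10 dimer bridges a pair of Anxa2 molecules into a complex that gathers plasminogen and its activator at the cell surface, and S100a11 is known as a partner of Anxa1. In healthy adult liver Anxa2 is scarce in hepatocytes and is better known from bile duct, endothelial and immune cells.

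The study asked how livers of young mice with and without the repair protein MGMT respond to NDMA, a nitrosamine that methylates DNA after activation in hepatocytes. RNA of whole liver was sequenced from the 3' ends of transcripts in mice on a C57BL6 background, either RaDR+/+;GPT+/+ (called WT) or RaDR+/+;GPT+/+;Mgmt-/- (called Mgmt-/-). All groups thus carried the RaDR and GPT reporter transgenes, and Mgmt was deleted in the whole animal and not in hepatocytes alone. NDMA was injected into the peritoneum at 3.5 mg/kg on postnatal day 8 and at 7 mg/kg on postnatal day 15, and controls received saline on the same days. Livers of both sexes were collected from pups (Days 1, 2 and 5, counted from the second injection) and from adults (Week 10 and Month 10). Over these times the WT livers numbered 26, 8, 8, 8 and 13 after NDMA, with 21, 8, 7, 8 and 10 controls. The Mgmt-/- livers numbered 12, 8, 8, 8 and 13 after NDMA, with 12, 7, 8, 8 and 12 controls. Whole litters were assigned to a treatment, so mice of 1 group can be littermates, and the p-values measure the spread between these mice.

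Values are read counts that the authors divided by a size factor for each library, called normalised counts here. The genotypes were scaled separately, so their levels are not compared except on reads. The 3' ends were counted without regard to transcript length, and levels of different genes are set against each other only to name the most abundant marker of a list. Depth ran from 150038 to 4791649 reads (median 1710016) in WT and from 713584 to 7740710 (median 2347670) in Mgmt-/- libraries. Depth is known for the 209 libraries whose reads could be recovered. Of these, 4 were below 300000 reads, all WT NDMA. They held 150038 at Day 2 (D215006), 202626 at Day 5 (D215014), 270673 at Week 10 (D215022) and 213007 at Month 10 (D215030). The labels were checked first. Mgmt ran from 13.004 to 130.05 in WT livers and from 0 to 9.67 in Mgmt-/- livers, with 30 of 94 at 0. Albumin (Alb), the defining transcript of hepatocytes, was at 25256 or more in all 117 WT livers and at 29809 or more in 94 Mgmt-/- livers. Both other Mgmt-/- libraries, 1 female and 1 male labelled saline Day 5, held the kidney transcript Kap at over 1000 and were left out, which leaves 6 mice in that group. In 2 WT NDMA Day 1 libraries the sex genes went against the label. Because the tissue is bulk liver, fewer cells of a type and less RNA per cell cannot be told apart.

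In Mgmt-/- mice S100a11 had the largest log2 difference of the members between NDMA and saline in the first days (Day 1 to Day 5). At Month 10 it was followed by Anxa5 (1.83 ± 0.24 against 1.499 ± 0.19), and at Week 10 it could not be told from Anxa2 (3.10 ± 0.28 against 3.03 ± 0.23, with Anxa2 the larger by edgeR, DESeq2 or a pseudocount of 5). At Day 1 it lay at 17.9 to 92.1 (median 31.5) normalised counts in 12 saline mice and at 61.8 to 489.9 (median 244) in 12 NDMA mice, and at Week 10 at 5.22 to 42.4 (median 25.0) and 137 to 340.03 (median 211) in 8 mice each. In 11 of 12 NDMA mice at Day 1 and in all 8 at Day 2, Day 5 and Week 10, S100a11 was above the highest saline mouse of its time. The log2 difference was 2.57 ± 0.21 (SE) at Day 1, 2.44 ± 0.18 at Day 2, 2.33 ± 0.16 at Day 5, 3.10 ± 0.28 at Week 10 and 1.83 ± 0.24 at Month 10, that is, 5.93-fold, 5.44-fold, 5.04-fold, 8.58-fold and 3.54-fold. Differences within a genotype are on the scale of log2(normalised count + 1), which understates those of low genes. Among the Day 1 NDMA mice, library D389094 held the lowest or highest value for 7 members, and without it S100a11 was 2.44 and the same number of members, 6, was called. The label of another of them, D389070, notes that the mouse was a new entry made in retrospect, and without it S100a11 was 2.73 with 6 members called. At Month 10 the levels of both groups were lower, at 5.43 to 23.5 (median 13.7) in saline and 14.5 to 200.1 (median 37.5) in NDMA mice, and the groups overlapped. The saline Week 10 range starts low because of library D209001, where S100a11 was at 5.22 while the other 7 saline mice were at 24.2 or more.

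The S100a11 and S100a10 genes lie close together, at chr3:93520488-93526287 and chr3:93555080-93564643, both on the plus strand of GRCm38. S100a10, the subunit that joins Anxa2 molecules, had the second largest difference in Mgmt-/- livers at Day 1 and a pattern over time unlike that of S100a11. It lay at 119.97 to 383 (median 204) in saline and 432 to 1873 (median 715) in NDMA mice at Day 1, where it was the only member whose groups did not overlap. Its log2 difference was 1.79 ± 0.16 at Day 1, 1.46 ± 0.16 at Day 2, 1.60 ± 0.21 at Day 5, 1.02 ± 0.21 at Week 10 and 0.15 ± 0.15 at Month 10. The smaller difference at Week 10 came with a higher saline level, at 390.4 to 1142 (median 803), than at Day 1, and the NDMA mice lay at 1131 to 2229.8 (median 1460.4). At Month 10 both groups covered much of the same range, 235 to 801 (median 458) in saline and 274 to 892 (median 551) in NDMA mice.

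In WT livers both S100 partners were called higher after NDMA at Day 1 and Day 2, with smaller differences than in Mgmt-/- livers, and every range overlapped. S100a11 lay at 14.4 to 166 (median 29.0) in 21 saline mice at Day 1 and at 27.2 to 191 (median 91.1) in 26 NDMA mice, with a log2 difference of 1.29 ± 0.19. The high end of the saline range was 1 library, D209074, in which S100a10 was also the highest of the saline mice, and without it the differences were 1.40 for S100a11 and 1.13 for S100a10. S100a10 lay at 109 to 590.3 (median 137) and 162 to 739 (median 312), with a log2 difference of 1.04 ± 0.14. At Day 2 the differences were 0.90 ± 0.23 for S100a11 and 1.13 ± 0.33 for S100a10, and at Day 5 0.95 ± 0.27 and 0.80 ± 0.39. By Week 10 they were 0.09 ± 0.23 and -0.22 ± 0.24, and at Month 10 0.56 ± 0.22 and 0.48 ± 0.22.

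**Figure D1:**
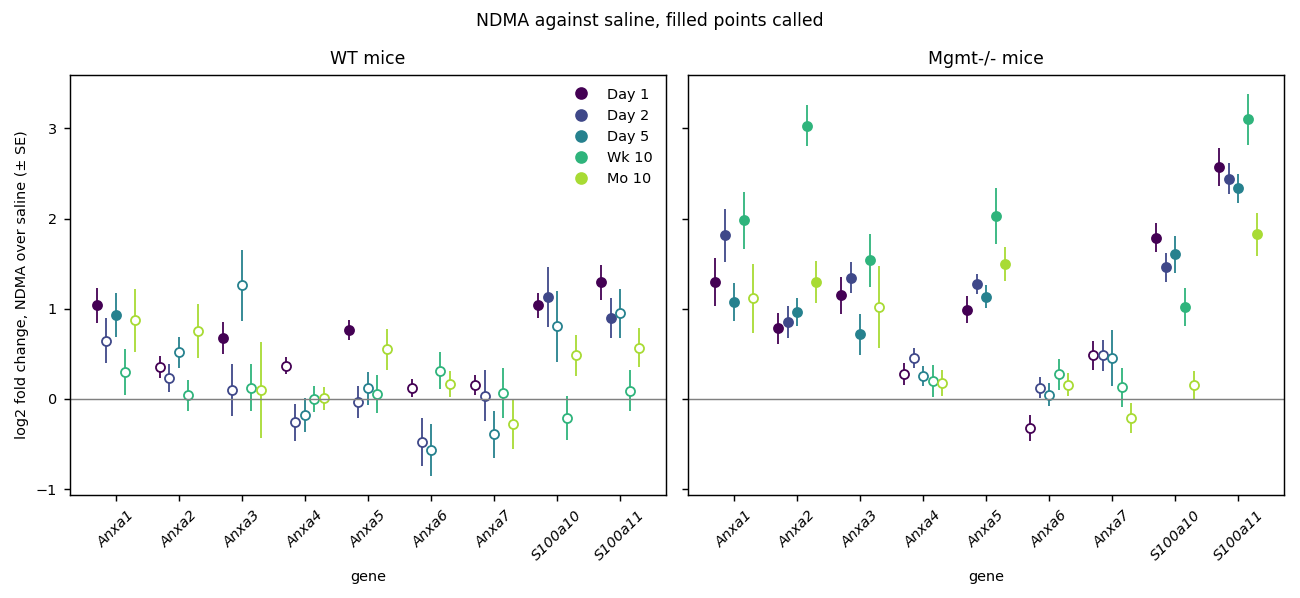
Log2 difference (NDMA minus saline, on log2(normalised count + 1)) of the 9 measured members at each time, with bars for the SE and filled points for members that passed both limits of a call (adjusted p 0.05, log2 difference 0.58). In Mgmt-/- livers S100a11 stays between 1.83 and 3.10 at the 5 times while Anxa4, Anxa6 and Anxa7 lie between -0.32 and 0.48, and in WT livers no point is filled at Week 10 or Month 10.

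Across the family, a member was counted as called higher when its adjusted p over all genes was under 0.05 and its log2 difference over 0.58. The same 6 members, Anxa1, Anxa2, Anxa3, Anxa5, S100a10 and S100a11, were called higher in Mgmt-/- livers at Day 1, Day 2, Day 5 and Week 10, and 3 of them, Anxa2, Anxa5 and S100a11, at Month 10. Of all genes tested, 9.06%, 12.4%, 11.1%, 7.27% and 4.75% were called higher at these times. In WT livers 5 members were called higher at Day 1 (Anxa1, Anxa3, Anxa5, S100a10 and S100a11), 2 at Day 2 (S100a10 and S100a11), 1 at Day 5 (Anxa1) and none at Week 10 or Month 10. Here 5.01%, 3.33%, 2.22%, 0.0249% and 0% of all genes were called higher. With limma 350 of 8048 genes at Week 10 and 757 of 9254 at Month 10 had an unadjusted p under 0.05 in WT livers, and edgeR and DESeq2 on whole reads called no member at either time. No member was called lower at any time in either genotype. Since the members were chosen on this contrast, their counts follow from the choice and are no test of the members, and the shares stand beside them only as the background.

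Of the WT calls after Day 1, those of S100a10 and Anxa1 changed with single libraries. That of S100a11 at Day 2 held without any 1 of the 16 libraries, with its difference between 0.80 and 1.09. At Day 2 the S100a10 call was lost when any of 14 of the 16 libraries was left out, while its difference stayed between 1.03 and 1.45. Without the shallowest library, D215006, 4 members passed at Day 2, with Anxa1 at 0.70, S100a10 at 1.45 and S100a11 at 0.90 higher and Anxa6 at -0.71 lower, while the share of all genes called higher rose from 3.33% to 5.39%, with 4.79% lower. At Day 5 the Anxa1 call was lost without any of 11 of the 15 libraries, with its difference between 0.82 and 1.07. Without the shallow library D215014, 5 members passed at Day 5, with Anxa1 at 1.07, Anxa3 at 1.30, S100a10 at 1.14 and S100a11 at 1.12 higher and Anxa6 at -0.81 lower, beside 5.48% of all genes called higher in place of 2.22% and 3.7% lower. Without D215012 3 members passed at Day 5 (3.95% of all genes higher) and without D215011 2 (1.63%). The WT Day 1 count stayed at 5 without the 2 libraries with mismatched sex genes and within 1 library batch alone, and also without D209077 or D279045, the NDMA libraries at the lowest or highest value of their group for 6 and 7 members, with S100a11 at 1.38 and 1.24.

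Ranges that did not overlap are given for the same comparisons. Every NDMA mouse was above every saline mouse for S100a10 at Day 1 in Mgmt-/- livers, as for 0.776% of all genes tested. At Day 2 this held for 6 members (Anxa1, Anxa3, Anxa4, Anxa5, S100a10 and S100a11), against 6.19% of all genes. At Day 5 it held for 4 (Anxa2, Anxa5, S100a10 and S100a11), against 6%, and at Week 10 for 5 (Anxa1, Anxa2, Anxa3, Anxa5 and S100a11), against 2.4%. At Month 10, and in WT livers at all 5 times, the groups of every member overlapped, beside shares of all genes without overlap of 0.129% at Month 10 and of 0%, 0.373%, 0.22%, 0% and 0% in WT livers, so overlap was the rule for all genes there.

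**Figure D2:**
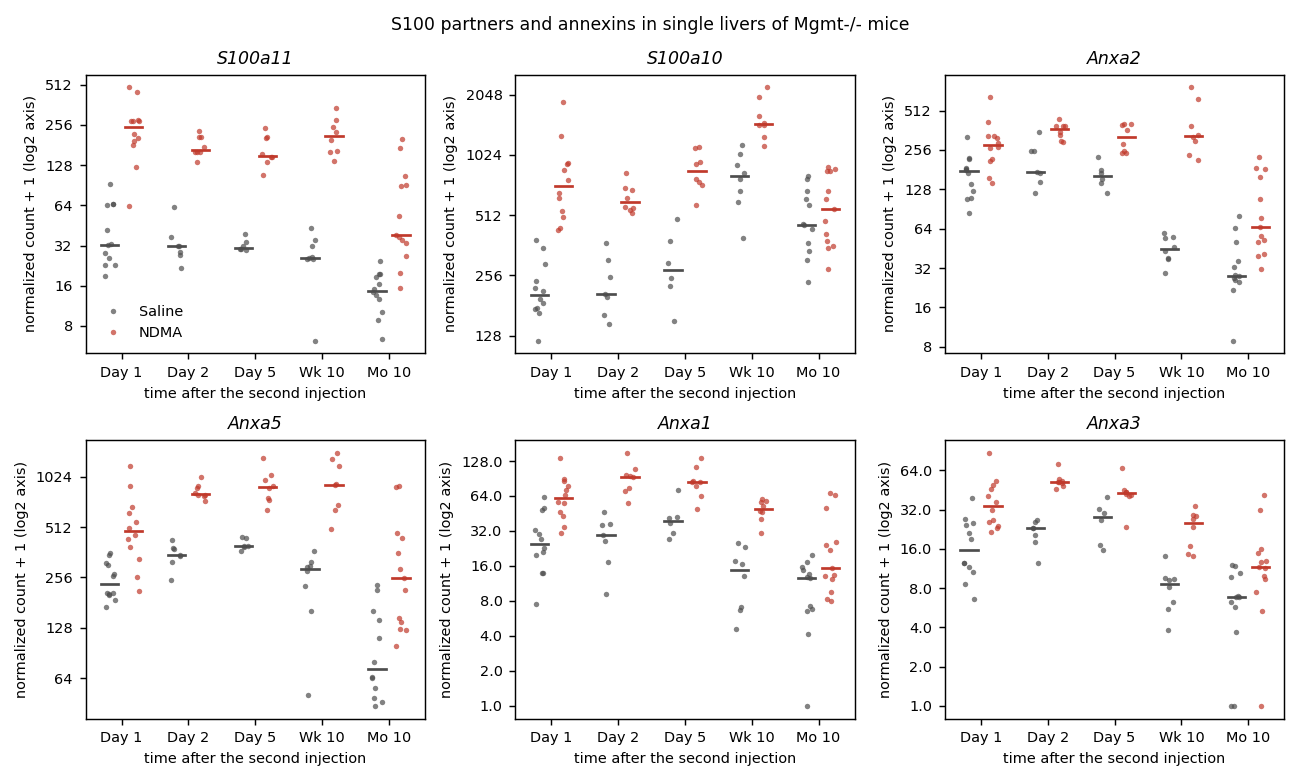
Normalised counts plus 1 (log2 axis) of S100a11, S100a10, Anxa2, Anxa5, Anxa1 and Anxa3 in single Mgmt-/- livers at the 5 times, saline in grey and NDMA in red, with bars for the medians. The red and grey points of S100a11 do not overlap from Day 2 to Week 10, and Anxa2 falls in the saline mice from a median of 175 at Day 1 to 43.8 at Week 10 while the medians of the NDMA mice are 278, 369, 323 and 324 from Day 1 to Week 10. Libraries of Days 2 and 5 were in another batch than those of Week 10.

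Anxa2, the annexin of the plasminogen complex, differed most at Week 10. Its gene lies at chr9:69453620-69491795 on the plus strand of GRCm38. It lay at 83.7 to 321 (median 175) in saline and 141 to 647 (median 278) in NDMA mice of the Mgmt-/- genotype at Day 1, and at 28.2 to 58.0 (median 43.8) and 214 to 771 (median 324) at Week 10. At Day 1 the ranges overlapped, with 4 of 12 NDMA mice above the highest saline mouse, and at Week 10 all 8 were above it. The log2 difference was 0.78 ± 0.17 at Day 1, 0.85 ± 0.18 at Day 2, 0.96 ± 0.16 at Day 5, 3.03 ± 0.23 (8.17-fold) at Week 10 and 1.29 ± 0.23 at Month 10. The Week 10 difference joins a low saline level with an NDMA level close to that of the pups. The Mgmt-/- libraries of Days 2 and 5 were in another batch than those of Week 10. Age and batch therefore cannot be told apart between these levels. In WT livers Anxa2 was not called at any time. Its WT differences were 0.36 ± 0.12, 0.23 ± 0.15, 0.52 ± 0.17, 0.04 ± 0.17 and 0.75 ± 0.29 in order of time, and at Week 10 it lay at 40.8 to 69.5 (median 44.3) in saline and 39.3 to 65.7 (median 50.0) in NDMA mice.

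Anxa5, which binds phosphatidylserine on dying cells, was called higher at all 5 times in Mgmt-/- livers. Its gene lies at chr3:36448923-36475894 on the minus strand. At Day 2 it lay at 246 to 427 (median 348) in saline and 736 to 1024 (median 805) in NDMA mice, with no overlap and a log2 difference of 1.27 ± 0.11. At Week 10 the values were 50.1 to 366 (median 286) and 496 to 1426 (median 916), again apart, where the low end in saline was the library D209001 at 50.1. The differences at the other times were 0.99 ± 0.15 at Day 1, 1.14 ± 0.13 at Day 5, 2.03 ± 0.31 at Week 10 and 1.499 ± 0.19 at Month 10. In WT livers Anxa5 was called at Day 1 alone, at 153 to 336 (median 216) in saline and 159 to 951 (median 359) in NDMA mice, with a difference of 0.76 ± 0.11 and 17 of 26 NDMA mice above the highest saline mouse. From Day 2 to Week 10 its WT differences were -0.03 ± 0.17, 0.12 ± 0.18 and 0.05 ± 0.21, and at Month 10 it was 0.55 ± 0.23, not called.

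The upstream sequences of S100a11, Anxa2 and Anxa5 are shown because these 3 genes were called at all 5 times in Mgmt-/- livers, so that the motifs they hold can be compared. They are the 250 bases before the RefSeq start on GRCm38.p6, written 5' to 3' on the strand of the gene, and capitals mark each match to the AP-1 motif TGANTCA. S100a11 is at chr3:93520246-93520495 on the plus strand, Anxa2 at chr9:69453433-69453682 on the plus strand and Anxa5 at chr3:36475888-36476137 on the minus strand.
S100a11: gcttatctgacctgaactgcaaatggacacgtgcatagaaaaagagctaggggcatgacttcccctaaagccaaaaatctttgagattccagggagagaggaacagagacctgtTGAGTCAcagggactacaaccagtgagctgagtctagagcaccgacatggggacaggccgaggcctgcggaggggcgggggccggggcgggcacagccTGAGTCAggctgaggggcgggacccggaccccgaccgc
Anxa2: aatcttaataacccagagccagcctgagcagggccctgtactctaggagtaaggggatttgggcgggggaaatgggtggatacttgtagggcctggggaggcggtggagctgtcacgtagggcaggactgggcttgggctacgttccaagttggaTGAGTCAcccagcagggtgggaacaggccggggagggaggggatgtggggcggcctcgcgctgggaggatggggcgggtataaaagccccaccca
Anxa5: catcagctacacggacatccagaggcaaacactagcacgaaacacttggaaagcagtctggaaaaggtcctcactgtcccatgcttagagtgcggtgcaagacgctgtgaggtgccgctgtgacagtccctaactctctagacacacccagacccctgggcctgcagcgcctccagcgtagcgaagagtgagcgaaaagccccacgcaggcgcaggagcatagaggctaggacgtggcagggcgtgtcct

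S100a11 held the AP-1 letters at 2 positions, starting 136 and 38 bases before the start, and Anxa2 at 1, starting 95 bases before it. Of 32851 RefSeq promoters of the same length, 6.75% held at least 1 such match and 0.338% held 2 or more. Anxa5 held none. Both strands were searched for 10 motifs, and entries were found for 7 members (Anxa1, Anxa2, Anxa4, Anxa5, Anxa7, Anxa11 and S100a11). The TATA box TATAAA (12.4% of all promoters) was upstream of Anxa1 and Anxa2, the GC box GGGCGG (32.7%) of Anxa2, Anxa7, Anxa11 and S100a11, the TEAD motif GGAATG (12.6%) of Anxa1 and the p53 half-site (7.13%) of Anxa1. The CCAAT box CCAAT (33.8%), the cyclic AMP response element TGACGTCA (1.55%), the ETS motif CCGGAAGT (2.88%), the NF-kB motif GGGANTTCC (1.43%) and the CArG box (1.47%) were upstream of none. An AP-1 match cannot lie within the cyclic AMP response element, while a TATA box can lie within a CArG box. A match only describes these letters, other spellings of a motif were not searched, and binding was not measured. The other 3 members are S100a10, Anxa3 and Anxa6.

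Anxa1, an annexin known for restraining inflammation through formyl peptide receptors, was higher after NDMA in Mgmt-/- livers up to Week 10. At Day 2 it lay at 8.14 to 45.5 (median 28.3) in saline and 54.5 to 151 (median 92.9) in NDMA mice and at Week 10 at 3.56 to 24.2 (median 13.9) and 29.6 to 59.1 (median 48.9), without overlap at either time. Its differences were 1.30 ± 0.26 at Day 1, 1.82 ± 0.29 at Day 2, 1.07 ± 0.21 at Day 5 and 1.98 ± 0.31 at Week 10. At Month 10 the difference of 1.11 ± 0.38 was not called by limma, with 6 of 13 NDMA mice above the highest saline mouse. In WT livers it lay at 8.91 to 55.9 (median 18.1) in saline and 7.78 to 173 (median 41.5) in NDMA mice at Day 1, and its differences were 1.04 ± 0.19, 0.64 ± 0.25 and 0.93 ± 0.24 at Days 1, 2 and 5, 0.30 ± 0.26 at Week 10 and 0.87 ± 0.35 at Month 10.

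Anxa3 was called higher up to Week 10 in Mgmt-/- livers. It lay at 11.5 to 25.7 (median 22.0) in saline and 45.3 to 70.9 (median 50.8) in NDMA mice at Day 2. Those groups were apart, as were those of Week 10, at 2.83 to 12.99 (median 7.64) and 13.01 to 32.8 (median 24.2). Its differences were 1.15 ± 0.20, 1.35 ± 0.18, 0.72 ± 0.23, 1.54 ± 0.30 and 1.02 ± 0.45 in order of time. The Day 5 call was lost without any of the libraries D389024, D389042 or D389066, and its difference over the left-out libraries ran from 0.56 to 0.85. With both kidney libraries kept, the Day 5 difference of Anxa3 was 0.34 and not called, and that of S100a11 was 1.72. In WT livers Anxa3 was called by limma at Day 1 alone, with a difference of 0.67 ± 0.18. Its WT difference at Day 5 was larger and more variable, at 1.26 ± 0.39, where DESeq2 called it, as did limma without D215011, D215012 or D215014. At Day 2, Week 10 and Month 10 it was 0.10 ± 0.29, 0.13 ± 0.26 and 0.10 ± 0.53.

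Anxa4, Anxa6 and Anxa7 were not called in either genotype at any time. Anxa4, an annexin of epithelial membranes, was apart in Mgmt-/- livers at Day 2, at 181 to 239 (median 212) in saline and 253 to 369 (median 280.4) in NDMA mice. The difference was 0.46 ± 0.11, under the size asked for. Anxa7 had differences of 0.48 ± 0.16, 0.48 ± 0.17 and 0.46 ± 0.31 in the first days and -0.21 ± 0.17 at Month 10. Without the saline library D389023 it was called at Day 2, at 0.65, and without D389024 at Day 5, at 0.71. Anxa6, a longer annexin found on endosomes and the plasma membrane, had differences between -0.32 ± 0.15 at Day 1 and 0.27 ± 0.17 at Week 10 in Mgmt-/- livers, and -0.48 ± 0.27 and -0.57 ± 0.29 at Days 2 and 5 in WT livers. When libraries were scaled to 1 common total in place of the authors' size factors, the median of all genes in Mgmt-/- livers moved from 0.02 to 0.20 at Day 1, from 0.03 to 0.20 at Day 2, from 0.03 to 0.17 at Day 5 and from 0.04 to 0.24 at Week 10. On that scale Anxa7 was called at Day 1 (0.68) and Day 2 (0.65) and Anxa4 at Day 2 (0.63), and the members called before kept their direction. Over all genes 1635 were then called higher and 512 lower at Day 1 in place of 911 and 869, 1681 and 413 at Day 2 in place of 1170 and 710, 1451 and 412 at Day 5 in place of 1037 and 624, and 1162 and 177 at Week 10 in place of 704 and 376. Anxa11 was listed at 0 in most libraries of every group and reached at most 2.20 normalised counts in the liver libraries.

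**Figure D3:**
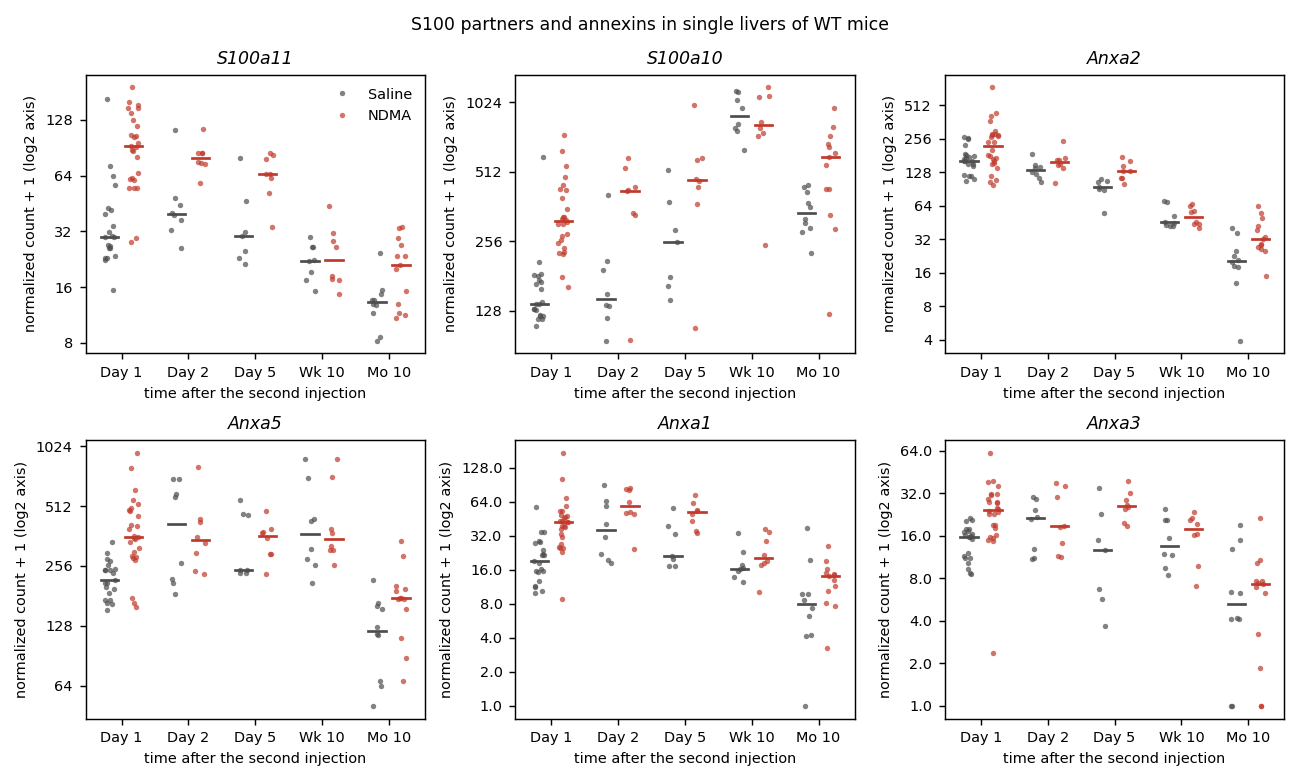
Normalised counts plus 1 (log2 axis) of the same 6 genes in single WT livers, saline in grey and NDMA in red, with bars for the medians. The colours overlap in every panel and time, S100a10 rises in saline mice from a median of 143 at Day 2 to 896 at Week 10, and at Week 10 NDMA mice have a median of 817.

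The response of the genotypes was set side by side at Day 1 by edgeR on whole reads, in library batches that held both. The NDMA library D389094, whose reads could not be recovered, is not among them. The WT saline library D209074, the highest saline mouse for both S100 genes, enters these fits and the saline comparison of genotypes. How far it shifts their estimates was not tested. The log2 difference between NDMA and saline was larger in Mgmt-/- than in WT livers by 1.40 ± 0.35 for S100a11 and by 0.90 ± 0.24 for S100a10. For the annexins the estimates were 0.46 ± 0.25 for Anxa2, 0.32 ± 0.30 for Anxa3, 0.31 ± 0.21 for Anxa5, 0.18 ± 0.37 for Anxa1, 0.20 ± 0.22 for Anxa7, -0.11 ± 0.16 for Anxa4 and -0.51 ± 0.22 for Anxa6. Both S100 partners had larger estimates than any annexin, though the differences among members were not tested, and since the estimates come from the contrast the members were chosen on, no test is attached. In saline livers, a contrast the choice did not use, no member differed between genotypes at Day 1 with edgeR, where 0.00983% of all genes did. S100a11 was the member with the smallest unadjusted p, at -0.47 ± 0.16 in Mgmt-/- minus WT livers (p = 0.00609, adjusted p = 0.9997 by edgeR), and was the only member under 0.05 unadjusted with edgeR. DESeq2 called none. The 95% interval of the genotype difference was -0.40 to 0.17 for S100a10 and -0.56 to 0.02 for Anxa2 on the log2 scale.

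Among NDMA-treated Mgmt-/- mice at Month 10, males had the higher levels of S100a11 and Anxa2. S100a11 lay at 14.5 to 37.5 (median 32.2) in 7 females and 52.1 to 200.1 (median 97.5) in 6 males. Anxa2 lay at 30.6 to 65.0 (median 49.5) in females and 76.0 to 227 (median 169) in males. For these 2 of 9 members every male was above every female, as for 1% of all genes. Anxa5 nearly did so, at 99.0 to 287 (median 138) in females and 254 to 905 (median 456) in males. The split by sex was noticed in the values and is given without a test. In saline mice of the same age it was seen for Anxa5, at 42.8 to 78.6 (median 55.0) in 7 females and 111 to 229 (median 159) in 5 males, and for S100a10, at 235 to 460.5 (median 372) and 576 to 801 (median 673), beside 4.71% of all genes. S100a11 and Anxa2 overlapped between the sexes in saline mice, and at Week 10 no member was split by sex after NDMA or saline, beside 2.55% and 2.43% of all genes.

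**Figure D4:**
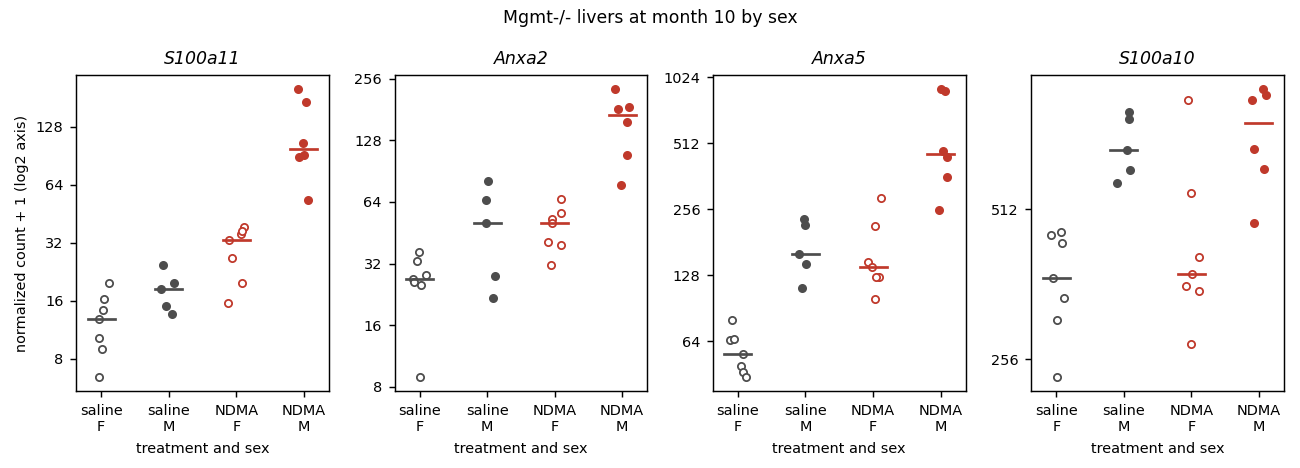
Normalised counts plus 1 (log2 axis) of S100a11, S100a10, Anxa2 and Anxa5 in single Mgmt-/- livers at Month 10, with open circles for females and filled circles for males, saline in grey and NDMA in red. For S100a11 and Anxa2 all filled red circles lie above all open red circles, the lowest male at 52.1 against the highest female at 37.5 for S100a11.

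A test of sex over both adult ages of saline Mgmt-/- mice called no member with limma, where 4.2% of all genes were called. S100a10 was 0.52 ± 0.20 higher in males (p = 0.0149, adjusted p = 0.165 by limma) and Anxa5 0.71 ± 0.32 (p = 0.0382, adjusted p = 0.281 by limma), the 2 members under 0.05 unadjusted. With edgeR none was called either, with 2 under 0.05 unadjusted. Among saline WT pups at Day 1 none was called by limma or edgeR, beside 0.0333% of all genes, and S100a11 alone was under 0.05 unadjusted (male minus female -0.45 ± 0.21, adjusted p = 0.998 by limma).

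Some of these genes changed with age in saline livers, a contrast the choice did not use, with 5 of 9 called in WT and 4 of 9 in Mgmt-/- livers between pups and Week 10. In WT livers, in 30 mice of the library batches that hold the 4 later times, S100a10 lay at 94.3 to 406 (median 143) at Day 2 and 636 to 1147 (median 896) at Week 10, with no overlap and a rise of 2.45 ± 0.23 (adjusted p = 1.08e-10 by limma). Anxa2, its partner, went the other way, from 104 to 185 (median 134) to 40.8 to 69.5 (median 44.3), a change of -1.42 ± 0.28 (adjusted p = 0.000195 by limma). The ranges of Anxa2 did not overlap either. S100a11 changed by -0.98 ± 0.27 (adjusted p = 0.00642), Anxa1 by -1.05 ± 0.34 (adjusted p = 0.0249) and Anxa6 by -0.58 ± 0.21 (adjusted p = 0.0389), all by limma. For the 5 members called, the background was 17.4% of all genes (7.27% higher, 10.2% lower). Anxa1 lost its call without any of 4 libraries and Anxa6 without any of 10, and without D202001 3 members were called. Anxa3, Anxa4, Anxa5 and Anxa7 were not called, at -0.38 ± 0.42, -0.25 ± 0.16, 0.07 ± 0.20 and 0.54 ± 0.19.

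The same partners went opposite ways in Mgmt-/- livers between Day 1 and Week 10, in a fit of 24 mice of 1 batch, 4 of them at Day 1. S100a10 was higher at Week 10 by 1.28 ± 0.28 (adjusted p = 0.00117 by limma), and Anxa2 changed by -1.72 ± 0.37 (adjusted p = 0.00118) and S100a11 by -1.54 ± 0.38 (adjusted p = 0.00454). Anxa7, an annexin of secretory vesicles, rose by 1.07 ± 0.27 (adjusted p = 0.00667 by limma), a call lost without the Day 1 library D209094, at 0.81, and under scaling to the same total, at 0.91. These 4 members stood beside 12.1% of all genes (6.51% higher, 5.6% lower). Over all 12 saline Day 1 mice, with batches pooled, the medians at Day 1 and Week 10 were 31.5 and 25.0 for S100a11, a smaller gap than in the fit. They were 204 and 803 for S100a10, 175 and 43.8 for Anxa2 and 56.8 and 83.5 for Anxa7. The other 5 were not called, among them Anxa1 at -1.38 ± 0.59 and Anxa5 at 0.20 ± 0.44.

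From Week 10 to Month 10 the median of all genes rose by 0.35 in WT and 0.22 in Mgmt-/- livers, and by 0.75 and 0.59 after scaling to a common total, so member changes are read against that shift. In WT livers 7 members fell and Anxa7 rose, beside 39.1% of all genes called higher and 21.4% called lower (60.5% in all). Anxa5 went from 208 to 880.03 (median 371) to 49.7 to 217 (median 120.3), a change of -1.65 ± 0.20 (adjusted p = 1.03e-08 by limma). Anxa7 went from 38.1 to 79.1 (median 49.2) to 75.7 to 152 (median 118), a rise of 1.28 ± 0.20 (adjusted p = 6.58e-07 by limma). Its direction and that of Anxa5 held under both scalings. With 7 of the 10 Month 10 mice in this fit, the other falls were -1.57 ± 0.43 for Anxa3, -1.49 ± 0.29 for Anxa2, -1.33 ± 0.23 for S100a10, -1.26 ± 0.36 for Anxa1, -0.74 ± 0.28 for S100a11 and -0.72 ± 0.16 for Anxa4, with S100a11 (-0.35) and Anxa4 (-0.31) no longer called under the same total. Without the Month 10 library D215026 the S100a11 change was -0.63 and not called. Anxa6 was not called, at 0.12 ± 0.21.

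Between these ages 4 of 9 members were called in Mgmt-/- livers by limma and 5 by edgeR, and 6 by limma without D209013, counts that lie on either side of the 49.6% of all genes called (30.7% higher, 18.9% lower). Anxa7 rose by 0.89 ± 0.20 (adjusted p = 0.000575 by limma), and Anxa5 changed by -1.26 ± 0.33 (adjusted p = 0.00213), S100a11 by -0.78 ± 0.28 (adjusted p = 0.0195) and S100a10 by -0.65 ± 0.21 (adjusted p = 0.00849), by limma. Under the same total S100a10 (-0.26) and S100a11 (-0.40) were no longer called and Anxa6 rose, by 0.82. The S100a10 call was also lost without D209025 or D209033, with its difference between -0.81 and -0.53 over the left-out libraries.

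**Figure D5:**
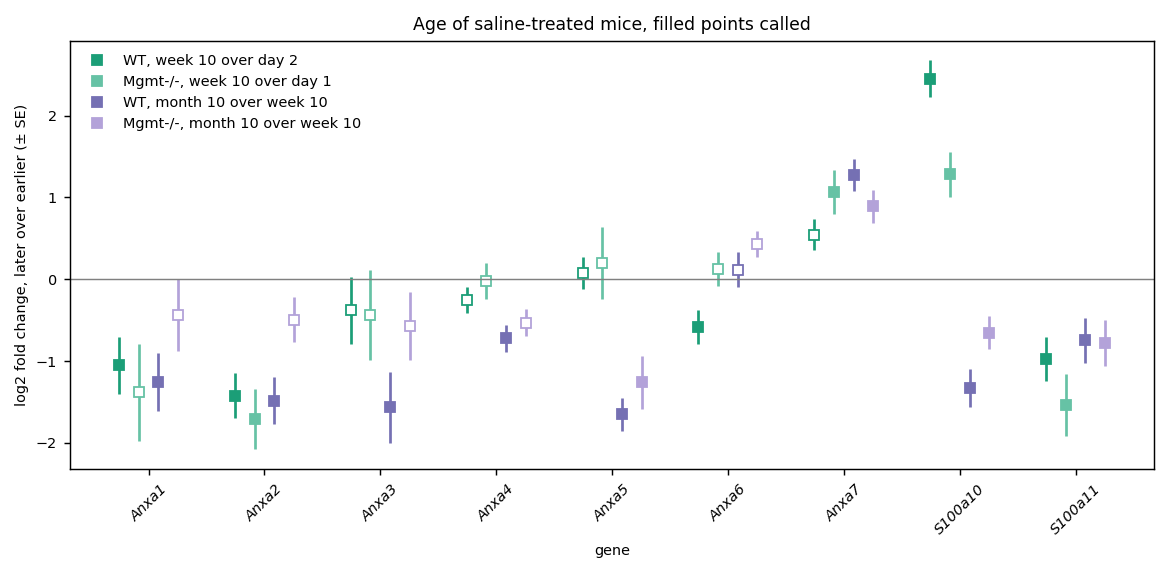
Log2 difference between ages in saline livers for the 9 measured members, with bars for the SE and filled points for calls, in WT (Week 10 minus Day 2, Month 10 minus Week 10) and Mgmt-/- mice (Week 10 minus Day 1, Month 10 minus Week 10). S100a10 lies above 0 up to Week 10, at 2.45 and 1.28, and below 0 after it, while Anxa7 lies above 0 in all 4 comparisons.

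Whether the binding partners vary together was asked among mice of 1 group, over 28 relations (4 pairs in 7 groups of at least 12 mice), with permutation p-values adjusted over them. The permutations did not account for library batch, so in WT and Mgmt-/- groups that held several batches the p-values pool them. In WT NDMA mice at Day 1 (n = 26), Anxa2 and S100a10 had r = 0.55 (permutation p = 0.00366, adjusted p = 0.0171) and rho = 0.45 (permutation p = 0.0218, adjusted p = 0.0776). Without the 2 mice farthest from the median r was 0.39, within the 3 library batches it was 0.74, 0.055 and 0.73, and after scaling libraries to 1 common total it was 0.37 (adjusted p = 0.141). The crossed pair of Anxa2 and S100a11 was also correlated in these mice, with r = 0.59 (permutation p = 0.0015, adjusted p = 0.014), rho = 0.52 (permutation p = 0.0067, adjusted p = 0.0469), 0.42 without the 2 farthest and 0.92, 0.52 and 0.69 within batches. In WT saline mice at Day 1 (n = 21), Anxa1 and S100a11 had r = 0.62 (permutation p = 0.00289, adjusted p = 0.0162), rho = 0.52 (permutation p = 0.0181, adjusted p = 0.0776), 0.64 without the 2 farthest, and 0.22 and 0.66 within batches. In WT NDMA mice at Month 10 (n = 13), Anxa2 and S100a10 had rho = 0.75 (permutation p = 0.00462, adjusted p = 0.0431) and r = 0.63 (permutation p = 0.0231, adjusted p = 0.0726), with r = 0.51 without the 2 farthest. Its library batches held too few mice for a value of their own. Anxa1 and S100a10 had adjusted p of 0.0726 or more in each group, but in WT NDMA mice at Day 1 a pseudocount of 5 gave r = 0.49 (permutation p = 0.0118, adjusted p = 0.0472) in place of 0.46, with 0.72, -0.20 and 0.88 within batches. In Mgmt-/- mice at Day 1 (n = 12 in each group) no pair passed when batches were pooled, where the permutations did not account for batch. Within the 1 batch that held 8 of the 12 NDMA mice r was higher, at 0.82 for Anxa2 and S100a10, 0.95 for Anxa1 and S100a11, 0.85 for Anxa2 and S100a11 and 0.85 for Anxa1 and S100a10, against 0.33, 0.64, 0.31 and 0.62 pooled. Within the batch of 8 saline mice Anxa2 and S100a11 had r = 0.86 against 0.17 pooled, and the other 3 pairs 0.31, 0.37 and 0.74. These values within batches carry no p. The batch of NDMA mice includes D389094, at the lowest or highest value of its group for 7 members. Over all 12 NDMA mice, r without the 2 farthest was -0.0097 for Anxa2 and S100a10 and 0.14 for Anxa1 and S100a11. It was 0.17 for Anxa2 and S100a11 and 0.19 for Anxa1 and S100a10. In the 12 saline mice these values were 0.50, 0.47, 0.49 and 0.52 in the same order. Whether known pairs were closer than crossed pairs was not tested.

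At Month 10 some members were split by sex in Mgmt-/- mice, Anxa2 and S100a11 after NDMA and S100a10 and Anxa5 in saline, so a pooled r includes the difference between the sexes. Of these pooled relations 3 passed. After NDMA (n = 13) Anxa2 and S100a11 had r = 0.95 (permutation p = 1e-05, the smallest that the permutations can give, adjusted p = 0.00028) and rho = 0.94 (permutation p = 2e-05, adjusted p = 0.00056), with r = 0.92 without the 2 farthest. Anxa2 and S100a10 there had r = 0.86 (permutation p = 0.00045, adjusted p = 0.0063) and rho = 0.88 (permutation p = 0.00015, adjusted p = 0.0021), with r = 0.86 without the 2 farthest. In saline mice (n = 12) Anxa2 and S100a10 had r = 0.77 (permutation p = 0.00265, adjusted p = 0.0162) and rho = 0.62 (permutation p = 0.0364, adjusted p = 0.0926), with r = 0.51 without the 2 farthest. Within each sex 12 relations were computed, and the 5 saline males were too few for a value. In NDMA-treated females (n = 7) Anxa2 and S100a10 had r = 0.85 and rho = 0.89 (exact permutation p = 0.0137 for r, adjusted p = 0.128), and in males (n = 6) r = 0.86 and rho = 0.54 (exact permutation p = 0.0319, adjusted p = 0.128). In saline females (n = 7) this pair had r = 0.75 and rho = 0.43 (exact permutation p = 0.0673, adjusted p = 0.202). Anxa2 and S100a11 had r = 0.87 and rho = 0.83 in males (exact permutation p = 0.0264, adjusted p = 0.128) and r = 0.65 and rho = 0.71 in females (exact permutation p = 0.121, adjusted p = 0.258). None of the 12 passed after adjustment.

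Genes outside the 10 members with the most similar pattern were listed by Pearson r over 94 Mgmt-/- livers, each centred on its time and batch, among 6107 genes. The livers share their treatment groups, so r includes the response to NDMA, and it is a description. For S100a11 the highest of these were Cd9 (0.92), Lgals1 (0.90), Ly6d (0.90), Cstb (0.90) and S100a6 (0.89). For Anxa2 they were Cd63 (0.84), Ly6d (0.83), Spon2 (0.83), Cd9 (0.82) and Ptgr1 (0.81), and for Anxa5 Myl12b (0.95), Hsd17b13 (0.90), Tmem176b (0.90), Tmem176a (0.88) and Ly6e (0.86). Within the family S100a11 had r = 0.89 with Anxa5, 0.85 with Anxa2 and 0.84 with S100a10, against 0.16 with Anxa7 and 0.08 with Anxa6. Anxa2 was nearer to Anxa5 (0.88) than to S100a10 (0.66), and above each gene listed for it with Anxa5 and S100a11.

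Other members of both families were followed as lists. Of the 3 other annexins measured, only Anxa13, an annexin of epithelial cells, passed the filter, and only in Mgmt-/- livers at Week 10 and Month 10. It passed through its level in the NDMA mice (saline means 2.23 and 1.22), so that it had to differ and its values are a description. It lay at 1.04 to 4.08 (median 2.19) in saline and 8.03 to 24.7 (median 16.5) in NDMA mice at Week 10, apart, with log2 differences of 2.36 ± 0.35 and 2.36 ± 0.36 at the 2 ages. Of the other S100 genes in Mgmt-/- livers, 3 of 8 tested were called higher and 1 lower at both Day 1 and Day 2, 2 of 7 higher and 2 lower at Day 5, 3 of 8 higher at Week 10 and 2 of 7 at Month 10. Of all genes, 9.06%, 12.4%, 11.1%, 7.27% and 4.75% were called higher, and 869 of 10055, 710 of 9469, 624 of 9306, 376 of 9681 and 301 of 10066 lower. S100a6, a growth-associated S100 protein, was called at every time, with 2.32 ± 0.23, 2.32 ± 0.23, 2.01 ± 0.19, 2.26 ± 0.30 and 1.52 ± 0.28. S100a4, which is typical of fibroblasts and macrophages, was called at Day 1 (1.73 ± 0.35), Day 2 (2.45 ± 0.41), Week 10 (1.94 ± 0.36) and Month 10 (1.28 ± 0.34). From Day 2 on it passed the filter through the NDMA mice (saline means 1.34, 3.92 and 3.84 at these 3 times), so those values are a description. S100a9, which with S100a8 forms the calprotectin of neutrophils, was called lower in the first days, at -1.35 ± 0.42, -1.33 ± 0.29 and -2.18 ± 0.27, and S100a8 at -1.86 ± 0.28 at Day 5. S100g, a calcium buffer, was called higher at Day 1 (1.26 ± 0.20), Day 2 (1.02 ± 0.32), Day 5 (1.57 ± 0.38) and Week 10 (2.56 ± 0.41), the last through its level in the NDMA mice, since saline mice had a mean of 1.68. In WT livers 1 of 7, 2 of 8 and 2 of 7 were called higher at Days 1, 2 and 5 (all genes 5.01%, 3.33% and 2.22%) and none later, with S100a6 at 1.08 ± 0.17, 1.72 ± 0.26 and 1.67 ± 0.24 and S100g at 0.24 ± 0.13 (not called), 1.34 ± 0.23 and 1.22 ± 0.32.

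Partners and receptors of these proteins were followed in the same way. In Mgmt-/- livers 1 of 10 tested was called higher and 2 lower at Day 1, 3 of 11 higher at Day 2, 5 of 12 higher and 2 lower at Day 5, 2 of 11 higher and 1 lower at Week 10 and 1 of 10 higher at Month 10. The shares of all genes are those given for the S100 genes, and the 1 of 10 higher at Day 1 is near them. Ahnak, a giant scaffold that binds the complex of S100a10 and Anxa2, was 0.59 ± 0.17 at Day 1, 1.14 ± 0.21 at Day 5, 0.71 ± 0.19 at Week 10 and 0.73 ± 0.17 at Month 10, and was not called at Day 2, at 0.44 ± 0.18. Plat, the tissue plasminogen activator, was 1.67 ± 0.39 at Day 5 and 2.52 ± 0.51 at Week 10, where it lay at 0 to 4.92 (median 0) in saline and 3.65 to 29.4 (median 7.61) in NDMA mice. At both times it passed the filter through the NDMA mice (saline means 1.87 and 1.26), so its calls follow from the group where it is high. Plasminogen itself (Plg), made by hepatocytes, was called lower, at -0.94 ± 0.17 on Day 1, -0.80 ± 0.13 on Day 5 and -0.63 ± 0.21 at Week 10. Fpr2, a receptor of Anxa1, was 2.25 ± 0.43 at Day 2 and 1.89 ± 0.38 at Day 5, and it too passed only through the NDMA mice (saline means 1.49 and 2.25). The phospholipase Pla2g4a, which annexins are known to inhibit, was 1.09 ± 0.26 and 1.34 ± 0.27 at the same times. In WT livers 1 of 11 was called higher at Day 1 (Pla2g4a, 0.77 ± 0.22, with a saline mean of 4.53, under the filter's 5), near the 5.01% of all genes. Plg alone was called lower at Day 2 (-0.73 ± 0.16) and Day 5 (-0.72 ± 0.20), beside 249 of 8568 and 120 of 8654 of all genes, and none passed later.

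Transcripts of other cell types moved beside the members, and their part in the result was not tested. A marker that is low in saline mice can pass the filter through the NDMA mice alone, so these counts are a description. They stand beside 9.06%, 12.4%, 11.1%, 7.27% and 4.75% of all genes called higher at the 5 times, which 1 in 10 is near, and 869 of 10055, 710 of 9469, 624 of 9306, 376 of 9681 and 301 of 10066 lower. Of 15 macrophage and Kupffer cell markers tested in Mgmt-/- livers, 4, 10, 11, 10 and 7 were called higher at the 5 times and 3 lower at Day 1. Their summed level at Week 10 was 681 to 1708 (median 1151) in saline and 1983 to 2958 (median 2398) in NDMA mice, apart, with Lyz2 the most abundant. Of the T and NK cell markers, 5 of 6, 7 of 7, 7 of 7 and 1 of 4 were called higher from Day 1 to Week 10 and none could be tested at Month 10, with a summed level at Day 2 of 41.3 to 73.2 (median 60.7) and 209.8 to 545 (median 388), led by Gzma. Cholangiocyte markers were called higher for 2 of 4 at Week 10 (Spp1, 3.13 ± 0.41, and Cd24a, 2.32 ± 0.46) and for 1 of 4 at Month 10, and lower for 2 of 4, 1 of 3 and 1 of 3 at Days 1, 2 and 5. Their sum at Week 10 was 65.0 to 639.8 (median 101) and 435 to 1868 (median 849.9), where Cftr was at 0 in the saline mice. Most of this sum was Spp1, with a mean of 142 within a summed mean of 159 in saline and 930 within 978 in NDMA mice. Stellate cell and fibroblast markers were called higher for 3, 3, 3, 7 and 5 of 11 and lower for 5, 4, 3, 0 and 1, and summed to 399 to 546 (median 442) and 661 to 1084 (median 823) at Week 10, led by Dcn. Neutrophil markers were called lower for 3 of 5, 2 of 4 and 3 of 4 in the first days (1 higher at Day 2) and higher for 2 of 4 and 1 of 3 at the later times, with Mpo at 0 in saline Week 10 mice. At Day 5 the neutrophil sum was 119 to 462 (median 180.2) in saline and 29.1 to 42.2 (median 35.8) in NDMA mice, led by Ngp and by Retnlg. Endothelial markers were called higher for 1, 2, 2, 1 and 1 of 10 and lower for 5, 1, 3, 0 and 0, with Clec4g most abundant in most groups. Of 8 hepatocyte markers 4, 3, 1, 1 and 0 were called lower and 1 was called higher at Month 10, and their sum at Day 1, led by Alb, was 156295 to 408290 (median 306801) in saline and 103096 to 247498 (median 198745) in NDMA mice. Kidney markers passed the filter in no comparison.

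In WT livers 5.01%, 3.33% and 2.22% of all genes were called higher at Days 1, 2 and 5, and 378 of 9028, 249 of 8568 and 120 of 8654 lower. At Day 1, 5 of 15 macrophage markers were called higher and 1 lower, and 4 of 5 T and NK cell markers higher. At Day 2 and Day 5, 2 and 3 of 15 macrophage markers and 4 of 6 and 3 of 7 T and NK cell markers were called higher. Lower calls at Day 2 were 2 of 15 macrophage, 2 of 8 hepatocyte, 2 of 10 stellate cell and 1 of 10 endothelial markers, with 1 of 10 stellate cell markers higher, and at Day 5 lower calls were 1 of 8 hepatocyte and 1 of 10 stellate cell markers. At Week 10 and Month 10 no marker of any list was called by limma. Summed T and NK cell markers at Day 1 lay at 35.5 to 171 (median 48.5) in saline and 26.8 to 229 (median 95.3) in NDMA mice, and summed macrophage markers at 809 to 2202 (median 1490.05) and 854 to 3558 (median 1699.8). Of the other lists at Day 1, 1 of 4 neutrophil, 1 of 4 cholangiocyte and 3 of 11 stellate cell markers were called higher, and 4 of 11 stellate cell and 3 of 10 endothelial markers lower.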

How the data were processed

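Libraries of the 3' ends of liver RNA are labelled for 214 mice, and 213 had values. Alignment by the authors was to GRCm38 (mm10) with STAR. They counted genes with ESAT and deposited a signal for each gene, its count divided by 1 DESeq2 size factor per library, separately for each genotype. Versions of these tools, and whether the molecular identifiers of the primers were collapsed, are not given in the sources used here. In 209 libraries all values were whole multiples of 1 step (100% within 0.1), so whole reads were recovered, and 4 libraries were left out of tests on reads. These were the Mgmt-/- NDMA Day 1 library D389094 and the WT saline Day 2 libraries D202001, D202003 and D215002. At WT Day 2 edgeR and DESeq2 thus ran without these controls. Groups came from the labels. The 10 genes and all lists were chosen with earlier results of these data known. All 10 genes are given, and of each list of relatives and partners the 3 called genes with the largest difference at a time may be named.

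Groups were compared with limma 3.58.1 (trend, robust) in R 4.3.3 on log2(value + 1). Sex and library batch were terms where both varied, or 1 of them where a batch held 1 sex or a comparison 1 batch. Genes entered at a mean of 5 or more. A member was called when its p, adjusted after Benjamini and Hochberg over all genes, was under 0.05 and its log2 difference beyond 0.58 in size. Genotypes were compared on whole reads by the quasi-likelihood test of edgeR 4.0.16 after TMM scaling. Correlations used 100000 permutations, or all of them for groups of 6 or 7, and p-values are two-sided. Alternatives covered the pseudocount (0.5, 5), the filter (none, a mean of 20), no covariates, the same total in every library, edgeR, DESeq2 1.42.0, single batches and leaving out each replicate in turn (for NDMA only at Day 2, Day 5 and Week 10, where groups held at most 8 mice, and for age in saline livers). Added after seeing the data were leaving out libraries under 300000 reads or single libraries that stood apart or whose label differed, and correlations within sex. In simulated data limma recovered 62% of genes changed by 1 on the log2 scale and 98% of those changed by 2 in the layout of Mgmt-/- Day 5 (10083 genes). In that of WT Day 2 (7366 genes) it recovered 37% and 98%, without the saline libraries D202001, D202003 and D215002, whose reads were not recovered. The simulation had no sex or batch term and 1 dispersion for all genes, and only genes with a mean of at least 20 reads were changed. These shares are therefore not the power of the fits used here. Positions are from GENCODE vM21 and promoters from RefSeq, GRCm38.p6. Tables and plots were made in Python 3.11.15 (matplotlib 3.10.9, numpy 2.4.6, pandas 2.3.3).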

Additional observations from a re-analysis of the deposited data

Results flagged for a closer look

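Single livers stood far from their group in 19 of 117 group and gene combinations of 4 to 10 mice, where chance flags about 1 in 20. The saline Week 10 Mgmt-/- library D209001 did so for 4 members, with Anxa4 at 67.9 (others 123 to 182), Anxa5 at 50.1 (160 to 366), S100a11 at 5.22 (24.2 to 42.4) and Anxa7 at 224 (63.2 to 90.8).

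A further 9 came from 4 WT libraries, 3 of them (with 7 of these values) under 300000 reads. In D215006 (NDMA Day 2, 150038 reads) Anxa4 was at 52.6 (others 106 to 163), Anxa7 at 10.5 (30.9 to 57.1) and S100a10 at 94.7 (333 to 585). In D215014 (NDMA Day 5, 202626 reads) Anxa4 was at 57.4 (102 to 152) and S100a10 at 107 (370.4 to 1001). In D215022 (NDMA Week 10, 270673 reads) Anxa7 was at 13.7 (51.7 to 73.9) and S100a10 at 246 (731 to 1189.9). In D215004 (saline Day 2, 392164 reads) Anxa6 was at 54.1 (107 to 137) and S100a11 at 112 (24.9 to 47.3).

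The remaining 6 were Anxa1 at 23.4 in WT NDMA Day 2 D202005 (others 49.1 to 84.0), Anxa2 at 53.6 in WT saline Day 5 D215009 (88.2 to 109) and at 2.92 in WT saline Month 10 D202026 (11.99 to 39.7), Anxa3 at 70.9 in Mgmt-/- NDMA Day 2 D389089 (45.3 to 53.4) and at 22.5 in Mgmt-/- NDMA Day 5 D389090 (39.9 to 65.8), and Anxa7 at 123 in Mgmt-/- saline Day 2 D389023 (46.1 to 58.9).

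The 2 saline Day 5 Mgmt-/- libraries with kidney transcripts, which entered only the alternative with all samples kept, held 3 members above the 6 liver libraries of their group. Anxa2 was at 254 and 292 (livers 119.9 to 223), Anxa3 at 73.6 and 67.5 (14.6 to 38.9) and S100a11 at 125 and 252 (28.8 to 37.9).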

How the results depend on the processing

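In Mgmt-/- livers from Day 1 to Week 10 the count of members called higher stayed within 1.5 times of 6 under every alternative run. Beyond the spread moved 2 NDMA values, Anxa6 (0.28) and S100a11 (1.72), both in Mgmt-/- livers at Day 5 with the kidney libraries kept, and 1654 did not. At Month 10 DESeq2 called 5 members and edgeR 4, in place of 3. In WT livers at Day 2 1 member was called with no filter and with no covariates, and 4 (3 higher, 1 lower) without libraries under 300000 reads. At Day 5 none was called with no filter or no covariates, 2 with a pseudocount of 5, a mean of 20 or edgeR, 3 with DESeq2 and 5 (4 higher, 1 lower) without libraries under 300000 reads. The cause was not tested. Over the saline comparisons 27 values of single members lost a call, 10 gained one and 1263 kept direction and side.

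Leaving out each replicate in turn gave 1 to 4 members called in WT at Day 2, 0 to 5 at Day 5 and 0 at Week 10, and in Mgmt-/- 6 to 7 at Day 2, 5 to 6 at Day 5 and 6 at Week 10. For age in saline livers it gave 3 to 6 (WT, Week 10 against Day 2), 7 to 8 (WT, Month 10 against Week 10), 3 to 4 (Mgmt-/-, Week 10 against Day 1) and 3 to 6 (Mgmt-/-, Month 10 against Week 10). No paired analysis was possible because the groups share no replicate numbers.

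Of 55 NDMA differences that were not called, 12 changed sign under at least 1 alternative, all of them 0.28 or less in size, and of 35 called none did. In the other comparisons, values near 0 that changed sign were Anxa5 in WT from Day 2 to Week 10 (-0.0661 with the same total, -0.0196 to 0.133 over the left-out replicates), Anxa6 in WT from Week 10 to Month 10 (-0.0998 with edgeR), Anxa4 in Mgmt-/- from Day 1 to Week 10 (0.061 with edgeR, -0.14 to 0.125 over the left-out replicates, above 0 without D209001, D209089 or D209093), Anxa6 there (-0.0384 with the same total), Anxa4 between sexes (0.015 with edgeR), and between genotypes in saline pups, in batch 191212Eng alone, Anxa3 (0.0903), Anxa4 (0.0795) and Anxa5 (0.0669). The r of Anxa2 and S100a10 in Mgmt-/- saline Day 1 mice was -0.0037 with the same total. Depth limits the 4 WT NDMA libraries under 300000 reads most. Why Anxa11 had so few reads in all libraries was not tested.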
